A study of Homo sapiens with 2 samples.

Results

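The MYC gene carried 4 of the 3461 called peaks of an AIM2 chromatin immunoprecipitation study, 2 of 1525 in the 20 Gy library and 2 of 1936 in the 0 Gy library. A peak was taken as a MYC peak if it lay on chromosome 8 and its summit fell within 1000 bp of the gene. MYC was selected on its called peaks and on their height in each library, so its heights and ratios are a description and no test was made of them.

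HaCaT cells are an immortalised line of human keratinocytes. The 20 Gy library came from HaCaT cells given X-rays at 1.15 Gy per minute, with 4 h in the sample title, and the 0 Gy library came from HaCaT cells labelled as not treated. Both were fixed with formaldehyde and precipitated with an antibody against AIM2, and each group is 1 library of 1 line, so no difference could be set against replicate spread. The files hold DNA peaks only, so the cell type could not be checked against marker expression.

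MYC encodes a transcription factor that pairs with MAX, binds E-box DNA and drives genes of ribosome production, metabolism and cell division. In skin it acts in basal keratinocytes, where it is linked to proliferation and to the start of differentiation. The first exon of the gene is largely untranslated, and nearly all of the coding sequence lies in the second and the third exon. AIM2 is a cytosolic sensor of double-stranded DNA that assembles an inflammasome. The gene table gives the extent of MYC without its exons, so peak ends were set against the limits of the gene, and their distance from exon limits was not analysed here. Whether the fragments placed on MYC came from the gene itself or from another copy of its sequence, such as a spliced one, was not tested, and this bears on every MYC value below.

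The 20 Gy library kept 6423989 fragments after filtering, against 8786091 in the 0 Gy library, which is 0.731 times the depth. The lists held 1518 and 1929 nuclear peaks at 20 Gy and 0 Gy, and 7 mitochondrial peaks each. Calling used no control library, so how much of the MYC signal depends on the antibody cannot be told from these lists. Chromosome copy number in HaCaT was not analysed here.

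Both peaks lay inside the gene, and neither touched its limits. MYC spans 127735434 to 127742951 on chromosome 8 (GRCh38), a length of 7518 bp, and distances below run along the chromosome from the lower limit, which is the end where transcription starts. The upstream peak occupied positions 127738244 to 127738978 at 20 Gy, against 127738244 to 127738992 at 0 Gy. The downstream peak occupied positions 127740425 to 127740958 at 20 Gy, against 127740440 to 127740958 at 0 Gy. The upstream peak thus began 2810 bp into the gene in both libraries, and the downstream peak ended 1993 bp before the far limit in both.

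The stretches of MYC before, between and after the peaks had no called peak in either library. The gap between the peaks was 1446 bp at 20 Gy and 1447 bp at 0 Gy. Together the peaks covered 1269 bp of the gene at 20 Gy (16.9%) and 1268 bp at 0 Gy (16.9%). The upstream peak was the longer of the pair, with 735 bp against 534 bp for the downstream peak at 20 Gy. At 0 Gy the upstream peak had 749 bp and the downstream peak 519 bp.

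The outer ends of the pair agreed to the base between the libraries, and the inner ends did not. The start of the upstream peak and the end of the downstream peak were identical at 20 Gy and 0 Gy, whereas the inner ends differed by 14 bp and 15 bp. Of the 1046 nuclear peak pairs shared between the libraries, matched one to one by overlap of at least 1 bp, 72 had the same start to the base (6.88%, 95% exact interval 5.42 to 8.59). The same end to the base was found in 64 (6.12%, 4.74 to 7.75), and 131 had at least 1 of the ends in common (12.5%, 10.6 to 14.7). Both MYC pairs were among these 131.

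The summits were less stable than the ends. The upstream summit lay 3332 bp into the gene at 20 Gy and 3247 bp at 0 Gy, a shift of 85 bp. The downstream summit lay 5140 bp into the gene at 20 Gy and 5348 bp at 0 Gy, a shift of 208 bp in the opposite direction. The median shift over all shared nuclear pairs was 20 bp. It was 83 bp over the 14 other pairs in protein-coding genes, and 41.5 bp over the 8 other pairs on chromosome 8. Of the 1044 other pairs, 71 had a summit shift at least as large as that of the upstream MYC peak and 18 at least as large as that of the downstream one.

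**Figure D1:**
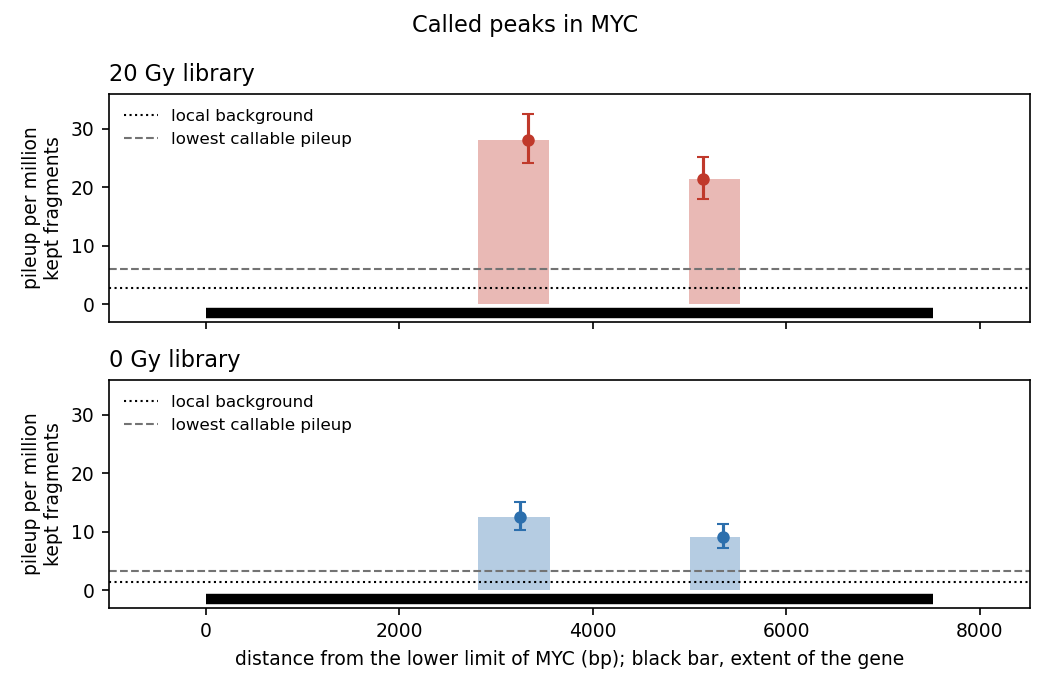
Called peaks in MYC in the 20 Gy library (top) and the 0 Gy library (bottom), against distance from the lower limit of the gene in bp. Boxes span each peak and reach its summit pileup per 1000000 kept fragments (they are not coverage profiles), points mark summits with 95% Poisson intervals, the dotted line is the caller's local background and the dashed line the lowest pileup it could call there. Both libraries show the same pair of intervals, and the boxes at 20 Gy are more than 2 times as high as those at 0 Gy.

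Both MYC peaks were higher in the 20 Gy library, before and after scaling for depth. The upstream peak had a pileup, the number of fragments over the summit, of 180 at 20 Gy, with a 95% Poisson interval of 155 to 208, against 110 at 0 Gy (90.4 to 133). The downstream peak had 137 at 20 Gy (115 to 162) and 80 at 0 Gy (63.4 to 99.6). The intervals take in counting error alone. The caller kept 1 fragment per position, so amplification copies with the same ends were counted once.

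Per 1000000 kept fragments the upstream peak stood at 28.0 at 20 Gy (24.1 to 32.4) and at 12.5 at 0 Gy (10.3 to 15.1). The downstream peak stood at 21.3 at 20 Gy (17.9 to 25.2) and at 9.11 at 0 Gy (7.22 to 11.3). The depth-scaled pileup ratio, 20 Gy over 0 Gy, was 2.24 for the upstream peak (exact conditional interval 1.76 to 2.86) and 2.34 for the downstream peak (1.76 to 3.13). With the pileups of both peaks added, 317 fragments at 20 Gy stood against 190 at 0 Gy, a scaled ratio of 2.28 (1.90 to 2.75).

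The ratios of both peaks were close to each other. The ratio of the downstream peak was 1.05 times that of the upstream peak, with an interval of 0.716 to 1.53, which leaves room for a difference of either sign. Within each library the upstream peak was the higher one, 1.31 times the downstream peak at 20 Gy (1.05 to 1.65) and 1.38 times at 0 Gy (1.02 to 1.86). The summits lay 1808 bp apart at 20 Gy and 2101 bp apart at 0 Gy, farther than the library's size selection of up to 450 bp. No fragment of selected size cut from the gene itself therefore counts toward both. For fragments of a spliced copy this was not tested.

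Most shared peaks did not differ in this way. The median depth-scaled ratio of the 1046 shared nuclear pairs was 1.06, and its quartiles were 0.894 and 1.25. A ratio of at least 2 was reached by 14 pairs (1.34%), and both MYC pairs were among them. Before scaling, 149 of the 1046 pairs had the higher pileup at 20 Gy, the MYC pairs included.

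The other pairs with ratios as high as those of MYC were low peaks, outside protein-coding genes. A ratio at or above that of the upstream MYC peak was found in 4 of the 1044 other pairs, on chromosomes 1, 10, X and 11. Their pileups were 14 to 17 at 20 Gy and 7 to 10 at 0 Gy. The highest ratio, 2.74, was shared by the pair on chromosome 1 at 124351511 to 124351779 and the pair on chromosome 10 at 39936503 to 39936818 (positions at 20 Gy). Each had pileups of 14 at 20 Gy and 7 at 0 Gy, and an interval of 1.03 to 8.01.

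The 5 pairs nearest to MYC in ratio, by distance on the log2 scale from the mean of the MYC pairs, had ratios of 2.1 to 2.43. They lay on chromosomes 11, 4, X, 22 and 9, and the tallest of them, on chromosome 4 at 49650496 to 49650834, had pileups of 30 at 20 Gy and 19 at 0 Gy. None of these came near the height of the MYC peaks.

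Among pairs of similar or greater height the MYC ratios stood apart. Of the other nuclear pairs, 201 had a pileup of at least 50 at 0 Gy, a limit set after the data were seen. Their median ratio was 1.00 and their ratios ran from 0.586 to 1.46. The highest, on chromosome 4 at 49632620 to 49633017, had pileups of 63 at 20 Gy and 59 at 0 Gy, with an interval of 1.01 to 2.12. Neither MYC ratio fell within the range of these 201 pairs. Of the protein-coding genes other than MYC, only RANBP2, SH3RF3, DUX4 and LMF1 had pairs among them. Most of the 201 were therefore outside such genes, and how many of them lie in repeated sequence was not analysed here.

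**Figure D2:**
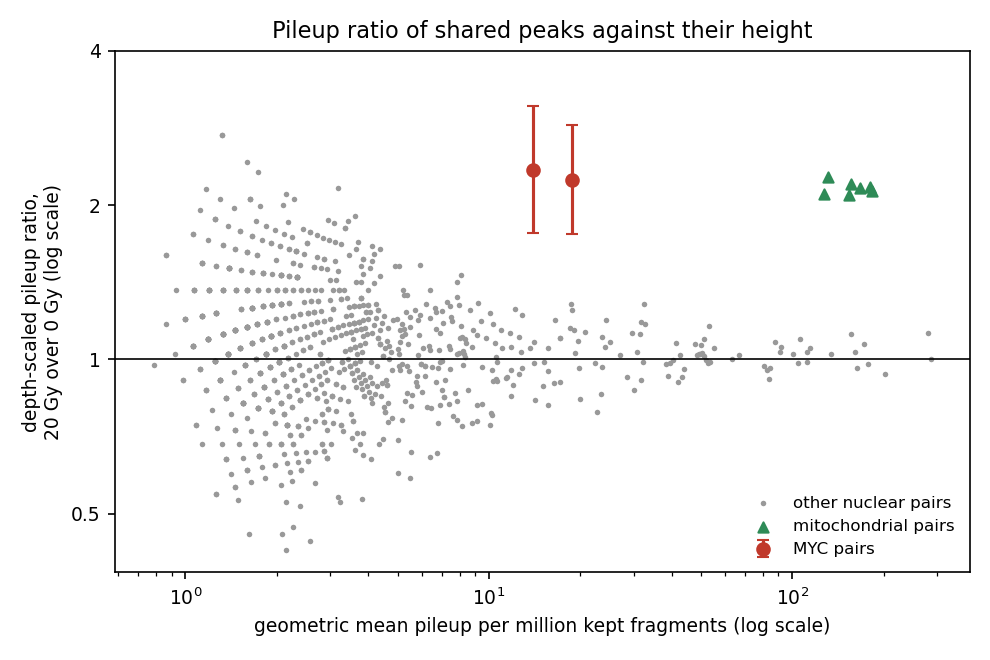
Depth-scaled pileup ratio, 20 Gy over 0 Gy (log scale), against the geometric mean pileup per 1000000 kept fragments (log scale) for 1044 other nuclear pairs (grey), 7 mitochondrial pairs (green triangles) and the 2 MYC pairs (red, with 95% exact intervals). Nuclear ratios narrow toward 1 as peaks get higher, and the MYC pairs, at 2.24 and 2.34, lie above all nuclear pairs of their height.

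The mitochondrial genome was the other place where high peaks differed by a like factor. Its 7 pairs had depth-scaled ratios of 2.09 to 2.27, with a median of 2.16. The highest mitochondrial pileup was 1710 at 20 Gy, where the 0 Gy library had 1100. The upstream MYC ratio of 2.24 lay within this range and the downstream ratio of 2.34 just above it, and both intervals hold all 7 mitochondrial values. Whether the amount of mitochondrial DNA in a library bears on the MYC values was not tested.

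The local background at MYC was also higher at 20 Gy, by somewhat less than the peaks. The caller's background at a summit is the mean fragment depth of the same library over 10000 bp, and it can be recovered from the deposited pileup and fold enrichment. It was 17.5 at the upstream peak and 17.4 at the downstream peak at 20 Gy, and 12.0 and 11.9 at 0 Gy. Both summits share most of a window of that size, so the background values of a library are nearly the same measurement.

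Relative to the mean depth over the genome, the background at the upstream MYC peak was 49.4 times as high at 20 Gy and 23.9 times as high at 0 Gy. Scaled by kept fragments, the background ratio, 20 Gy over 0 Gy, was 1.99 at the upstream peak and 2.0 at the downstream peak. None of the 1044 other nuclear pairs had a background ratio as high, and their highest was 1.66, on chromosome 19. Their median was 0.995.

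The MYC peaks lie inside the window that sets this background, so it is not an independent measure. If both peaks stood at summit height over their whole length, they alone would give a mean depth over the window of 20.5 at 20 Gy and 12.4 at 0 Gy. These upper limits are above the recovered backgrounds, so the share of the background that comes from outside the called peaks cannot be read from the lists.

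**Figure D3:**
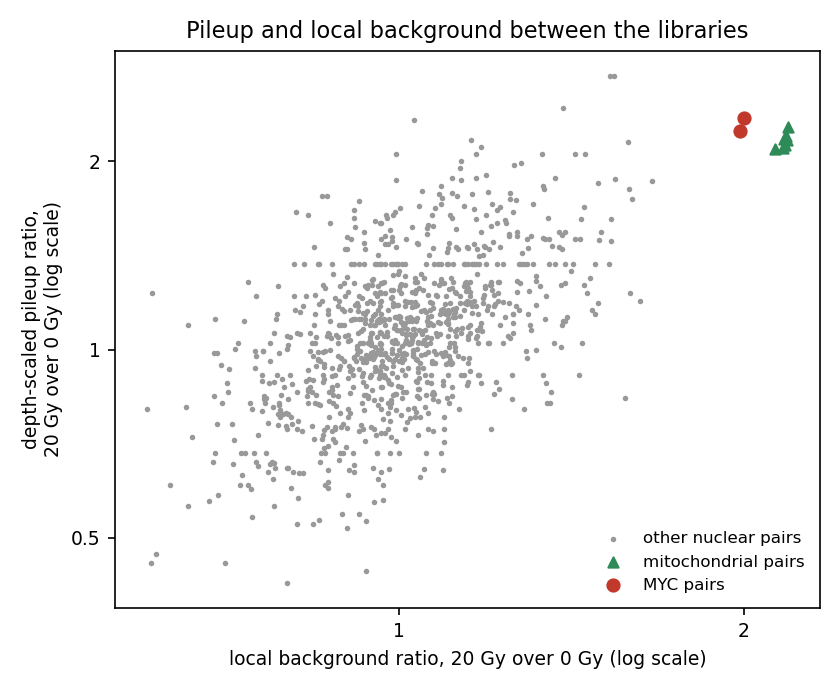
Depth-scaled pileup ratio against the ratio of local background per kept fragment, both 20 Gy over 0 Gy on log scales, for 1044 other nuclear pairs (grey), 7 mitochondrial pairs (green triangles) and the 2 MYC pairs (red). The MYC pairs have background ratios of 1.99 and 2.0, to the right of every other nuclear pair, and the mitochondrial pairs lie next to them.

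Fold enrichment, which divides pileup by this background after adding 1 to each, differed much less. It was 9.81 at 20 Gy and 8.53 at 0 Gy for the upstream peak, a ratio of 1.15. For the downstream peak it was 7.48 at 20 Gy and 6.27 at 0 Gy, a ratio of 1.19. Ratios of fold enrichment as high as these were found in 173 and 131 of the 1044 other pairs (16.6% and 12.5%), whose median was 0.953. The MYC pairs were therefore near the top of the lists in pileup ratio and not in fold enrichment ratio. Because the background window holds both MYC peaks, a difference shared by them is partly divided out of fold enrichment by construction. The 7 mitochondrial pairs had fold enrichment ratios of 0.974 to 1.04.

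The raised background also set how much signal could go uncalled in MYC. At the background of the MYC summits a pileup of at least 38 at 20 Gy or 29 at 0 Gy was needed to reach the least −log10 p-value called in each list. Elsewhere pileups down to 5 at 20 Gy and 6 at 0 Gy were called. The absence of a peak in the first 2810 bp, in the gap and in the last 1993 bp of MYC therefore does not show an absence of fragments there. The upstream summit stood 4.74 times above this limit at 20 Gy and 3.79 times at 0 Gy, and the downstream summit 3.61 and 2.76 times.

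Within each list the MYC peaks ranked high in length and height and lower in fold enrichment. The upstream peak ranked 24 of 1525 in length at 20 Gy and 28 of 1936 at 0 Gy, and the downstream peak 58 and 77. In pileup the upstream peak ranked 64 at 20 Gy and 105 at 0 Gy, and the downstream peak 77 and 136. In fold enrichment the ranks were 322 and 554 for the upstream peak at 20 Gy and 0 Gy, and 594 and 1127 for the downstream peak.

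The deposited −log10 q-values of the MYC peaks are the authors' values against the background of the same library. They were 109 at 20 Gy and 60.5 at 0 Gy for the upstream peak, and 67.9 at 20 Gy and 33.9 at 0 Gy for the downstream peak. The medians of the lists were 7.34 at 20 Gy and 7.88 at 0 Gy, and the lowest values called were 1.35 in both.

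**Figure D4:**
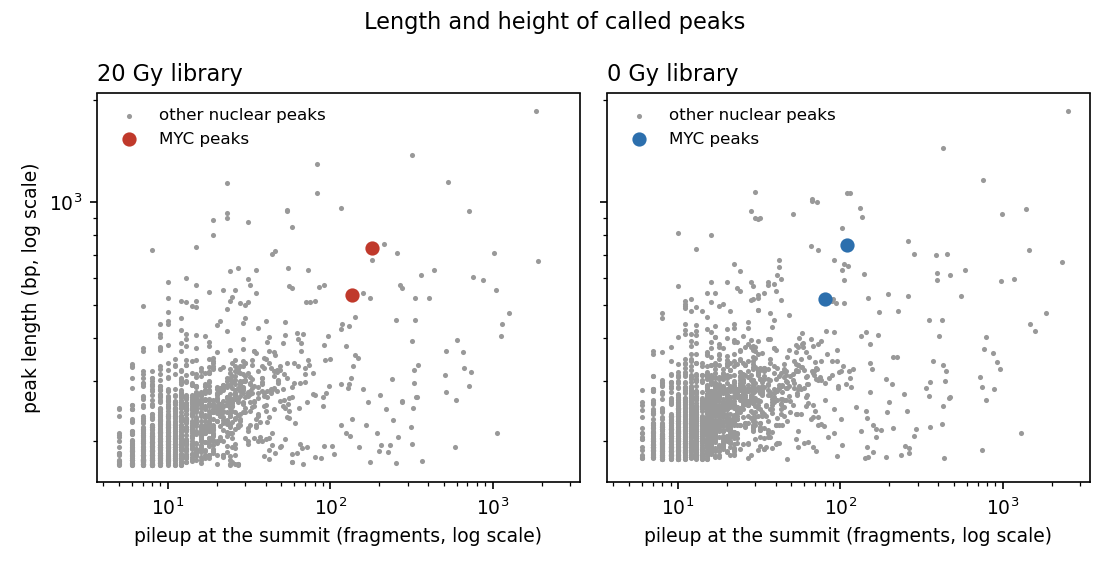
Peak length in bp against summit pileup in fragments, both on log scales, for all nuclear peaks of the 20 Gy library (left) and the 0 Gy library (right), with the 2 MYC peaks of each in colour. The MYC peaks, 534 and 735 bp long at 20 Gy and 519 and 749 bp at 0 Gy, lie toward the long and high end of both lists, where the median lengths are 228 and 239 bp.

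In nuclear protein-coding genes the upstream MYC peak had the highest pileup in both libraries, but not the highest fold enrichment. Peaks were called in 48 of 20033 nuclear protein-coding genes at 20 Gy (0.24%), in 44 at 0 Gy (0.22%) and in 15 in both libraries (0.0749%), MYC among them. Some gene positions on other chromosomes may count along scaffolds, which bears on these counts and on the ranks below. The MYC peaks ranked 1 and 2 in pileup among the 55 peaks in such genes at 20 Gy, and 1 and 3 among the 43 at 0 Gy. The highest other peak had a pileup of 75 at 20 Gy and 90 at 0 Gy. The gene table places it within 1000 bp of the nuclear pore gene RANBP2 and of SH3RF3. Its fold enrichment was 17.0 at 20 Gy and 17.2 at 0 Gy, against 9.81 and 8.53 for the upstream MYC peak. The median pileup of all peaks in these genes other than those of MYC was 8 at 20 Gy and 10 at 0 Gy.

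The other protein-coding genes with shared peaks had lower ratios than MYC. Their 14 pairs had depth-scaled ratios of 0.697 to 1.80, with a median of 1.21. The highest was at DOCK1, which encodes an activator of the RAC GTPase, with pileups of 29 at 20 Gy and 22 at 0 Gy and an interval of 1.00 to 3.29. The RANBP2 and SH3RF3 pair, closest to MYC in height, had a ratio of 1.14 (0.828 to 1.57) and a background ratio of 1.10. It also resembled the downstream MYC peak in length, with 509 bp at 20 Gy and 519 bp at 0 Gy. No local background in these genes came near that of MYC, with highest values of 5.75 at 20 Gy and 7.32 at 0 Gy.

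MYC stood alone on its part of chromosome 8. The nearest other peak was 41.9 Mb away in both libraries, at 85827128 to 85827426 with a pileup of 18 at 20 Gy, and at 85821061 to 85821381 with a pileup of 45 at 0 Gy. No peak lay between MYC and the far end of the chromosome. Elsewhere chromosome 8 had 13 peaks at 20 Gy, against 18 at 0 Gy, and no pileup there was over 48. The 8 other shared pairs on chromosome 8 had depth-scaled ratios of 0.638 to 1.45. No peak therefore lay just outside the 1000 bp limit that chose the members.

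None of the other genes on the lists examined, of MYC family members, partners, neighbours, targets and regulators, had a peak in either library. None of the 10 partners and antagonists had one, including MAX, the obligate partner, and MXD1 and MNT, which compete with MYC for MAX. MYCN and MYCL, the other family members, had none. Of the 14 genes around MYC on chromosome 8 that the gene table holds, of 15 listed, none had a peak, including PVT1 and CASC11, the long noncoding RNA genes on either side. None of the 20 MYC targets, such as ODC1 of polyamine synthesis and NCL, which encodes nucleolin, had one. Likewise there was none in the 11 regulators, such as FBXW7, a ubiquitin ligase subunit that marks MYC for degradation. The 13 reprogramming and immortalisation genes, with SOX2, KLF4 and TERT among them, also had none.

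Over all lists, 0 of 68 genes other than MYC had a peak at 20 Gy and 0 of 68 at 0 Gy. Over annotated nuclear genes of any class, 0.199% had one at 20 Gy and 0.208% at 0 Gy, so a count of 0 in 68 genes is near that background. Gene positions that may count along scaffolds bear on these shares as well.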

How the data were processed

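DNA was measured by AIM2 ChIP-seq in 1 library per group. Per the submitters' processing notes, Trimmomatic 0.36, BWA 0.7.15-r1140 and MACS2 2.1.2 were used, and the build was GRCh38.p13. Each library was called alone, per the file headers, with paired ends, a q-value limit of 0.05, 1 fragment kept per position, a background window of 10000 bp and no control. The signal the authors deposited is the pileup at the summit, and the file headers name no scaling between libraries. Their deposited fold enrichment is a ratio to local background, and p-values and q-values are deposited as −log10 values, per the file headers. Fragment size, the shortest peak allowed, was 170 bp at 20 Gy and 177 bp at 0 Gy per the file headers.

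Pileups were divided by kept fragments and multiplied by 1000000. Background was computed as (pileup + 1) / fold enrichment − 1; Poisson p-values recomputed from it differed from the deposited −log10 values by at most 0.00067 for 1488 peaks at 20 Gy and by at most 0.000338 for 1892 at 0 Gy, leaving out 37 and 44 peaks with values too high for this check. Genes came from the RefSeq table of GRCh38.p14, whose chromosome coordinates are those of p13. Some gene positions on other chromosomes may count along scaffolds. Intervals are Poisson, Clopper-Pearson and conditional binomial at 95%. Named genes were MYC, list members with a peak, protein-coding genes with peaks in both libraries, pairs with ratios at or above or nearest to MYC, and neighbouring chromosome 8 peaks. The members and lists were chosen with earlier results of these data known. Overlap matching was tested on simulated data. Python 3.11.15, pandas 2.3.3 and scipy 1.17.1 were used.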

Additional observations from a re-analysis of the deposited data

How the results depend on the processing

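Of 48 recomputed values, 34 moved by less than their interval, or for counts by less than 1.5 times, and 14 moved by more. With fold enrichment in place of pileup, the MYC ratios, 20 Gy over 0 Gy, were 1.15 upstream and 1.19 downstream, since both pileup and background were higher at 20 Gy. That background includes the MYC peaks themselves. Ranked by fold enrichment, the upstream peak was 322 at 20 Gy and 554 at 0 Gy and the downstream peak 594 and 1127, and by −log10 q-value the downstream peak was 229 at 0 Gy. Pairs with −log10 q-values of at least 5 in both libraries reached a ratio of 2 in 0.498% of cases, which leaves out low pairs by construction. Starts agreed within 5 bp in 27.2% and within 20 bp in 60.9% of pairs, and ends in 26.9% and 61.1%. A gene window of 10000 bp gave 2 list genes with a peak in each library, since the MYC peaks then also count for CASC11. The comparison with exon limits was not run for any transcript. Irradiation and differences in preparation cannot be told apart with 1 library in each group. No paired analysis was possible because there was a single library at each dose.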
